A study of Mus musculus with 24 samples.

Results

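The lysosomal genes described here are 36 named genes of the acid digestive compartment, all found by symbol in the deposited table of 17541 genes and all kept by the filter on low counts. They comprise 13 proteases, 10 hydrolases or activators acting on lipids, glycans and sphingolipids, 4 membrane proteins, 2 transcription factors and 7 proton pump genes. The samples were inguinal white adipose tissue, a subcutaneous fat depot, from C57BL/6J WT (wild-type) mice, and per the series title every mouse was fed a high-fat diet. BAM15 is a small molecule that uncouples mitochondrial respiration from ATP synthesis, and the sources used here do not give its dose or duration. The 24 libraries, each labelled with its own animal number, formed 4 groups: 7 mice aged 16 weeks without the compound (Young CTRL), 6 aged 16 weeks given BAM15 (Young BAM15), 6 aged 92 weeks without it (Aged CTRL) and 5 aged 92 weeks given BAM15 (Aged BAM15). RNA was measured with a 3' tag kit (QuantSeq), so levels are given as CPM, each gene's count scaled to a common library size, and are compared between mice and not between genes.

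Lysosomes break down protein, lipid and glycan delivered by endocytosis, phagocytosis and autophagy. Their hydrolases work at acid pH, which the vacuolar proton pump maintains by coupling ATP hydrolysis in its V1 sector to proton transport through its V0 sector. The transcription factors TFEB and TFE3 bind E-box elements of the CACGTG type near many lysosomal genes and move into the nucleus when the kinase mTORC1 is inactive. In obese fat the macrophages that clear dying adipocytes are rich in lysosomes, and several genes of the list, such as Ctss, Ctsk and Atp6v0d2, are known for their expression in macrophages or osteoclasts.

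The E-box is shown first because it is a sequence feature known near many lysosomal genes. It was not used to choose the members. Since it was known for such genes beforehand, its share among them is a description and not a test. RefSeq promoter windows on build GRCm38.p6, from 250 bases before to 50 bases after the annotated start, were matched for 30 of the 36 genes. Those without a matched window were Atp6v1h, Atp6v0d2, Ctsh, Asah1, Ctsb and Atp6v1b2. The letters CACGTG, which read the same on both strands, were found in 13 of the 30 genes (43.3%), against 8.09% of all 27025 genes with a window. The longer palindrome TCACGTGA, which contains CACGTG, was found in 6 of the 30 (20.0%), against 1.12% of genes. A match is a description of these letters and not evidence of binding. Below are 30-base stretches for the 6 genes that hold the motif and whose level in each Aged BAM15 mouse is given below. The stretches are written 5' to 3' on the gene's own strand with the motif in capitals. They lie at chr7:142387908-142387937 (Ctsd, minus strand), chr16:44139373-44139402 (Atp6v1a, minus), chr8:105566050-105566079 (Atp6v0d1, minus), chr13:64370739-64370768 (Ctsl, minus), chr19:4855074-4855103 (Ctsf, plus) and chr12:102439124-102439153 (Lgmn, minus). The gene spans given further below come from a different annotation, GENCODE. In it the stretches of Ctsd, Atp6v1a, Ctsl and Lgmn lie inside the gene, so their position relative to the start depends on the annotation.
Ctsd: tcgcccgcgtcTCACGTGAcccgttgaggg
Atp6v1a: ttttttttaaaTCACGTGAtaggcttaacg
Atp6v0d1: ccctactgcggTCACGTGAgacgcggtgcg
Ctsl: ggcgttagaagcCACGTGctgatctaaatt
Ctsf: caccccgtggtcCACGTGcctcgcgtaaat
Lgmn: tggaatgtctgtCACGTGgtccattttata

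Libraries held 8624158 to 21865353 counts, and 35 of the 36 genes had at least 10 counts in every library. The adipocyte genes Adipoq and Plin1 were detected in every library, at 1390.0 to 6196 CPM for Adipoq and 778 to 3260 CPM for Plin1. The share of counts from mt-Rnr2, a mitochondrial ribosomal RNA, was 0.257% or less in Aged BAM15 2 and 5, Aged CTRL 2 and Young CTRL 4, and 0.722% or more in the remaining 20 libraries, and many genes split the same way. Counts of members in the comparisons between groups are given with and without them below. The summed level of 10 B cell markers ran from 1.61 to 1523 CPM over the libraries, and Cd79a was at 0 in 10 of them. Skin keratin Krt14 stood out in Young CTRL 1 and 7, and the summed skeletal muscle markers reached 53607 CPM in Young CTRL 7, 58930 in Young BAM15 3 and 21057 in Aged CTRL 1. P-values set each difference against the spread between libraries within groups. In the fits to all 24 libraries that spread includes the mt-Rnr2 split and the uneven B cell, skin and muscle transcripts.

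Across the 3 main comparisons the lysosomal genes lay mostly above the Young CTRL level in untreated aged mice and mostly below their own control level in BAM15-treated mice of both ages, but in edgeR's test on all 24 libraries no member passed an adjusted p of 0.05 in any comparison between groups. The mean log2 CPM of the 36 genes was 6.21 ± 0.13 in Young CTRL (SD, n = 7), 5.92 ± 0.14 in Young BAM15 (n = 6), 6.50 ± 0.18 in Aged CTRL (n = 6) and 5.99 ± 0.16 in Aged BAM15 (n = 5). Their summed level was 5454 to 8408 CPM in Young CTRL, 4261 to 6417 in Young BAM15, 6589 to 10857 in Aged CTRL and 4244 to 7028 in Aged BAM15. In tissue RNA, fewer cells of a type and less RNA per cell cannot be told apart. The colour map of all members by mouse shows this pattern and the columns that depart from it.

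**Figure D1:**
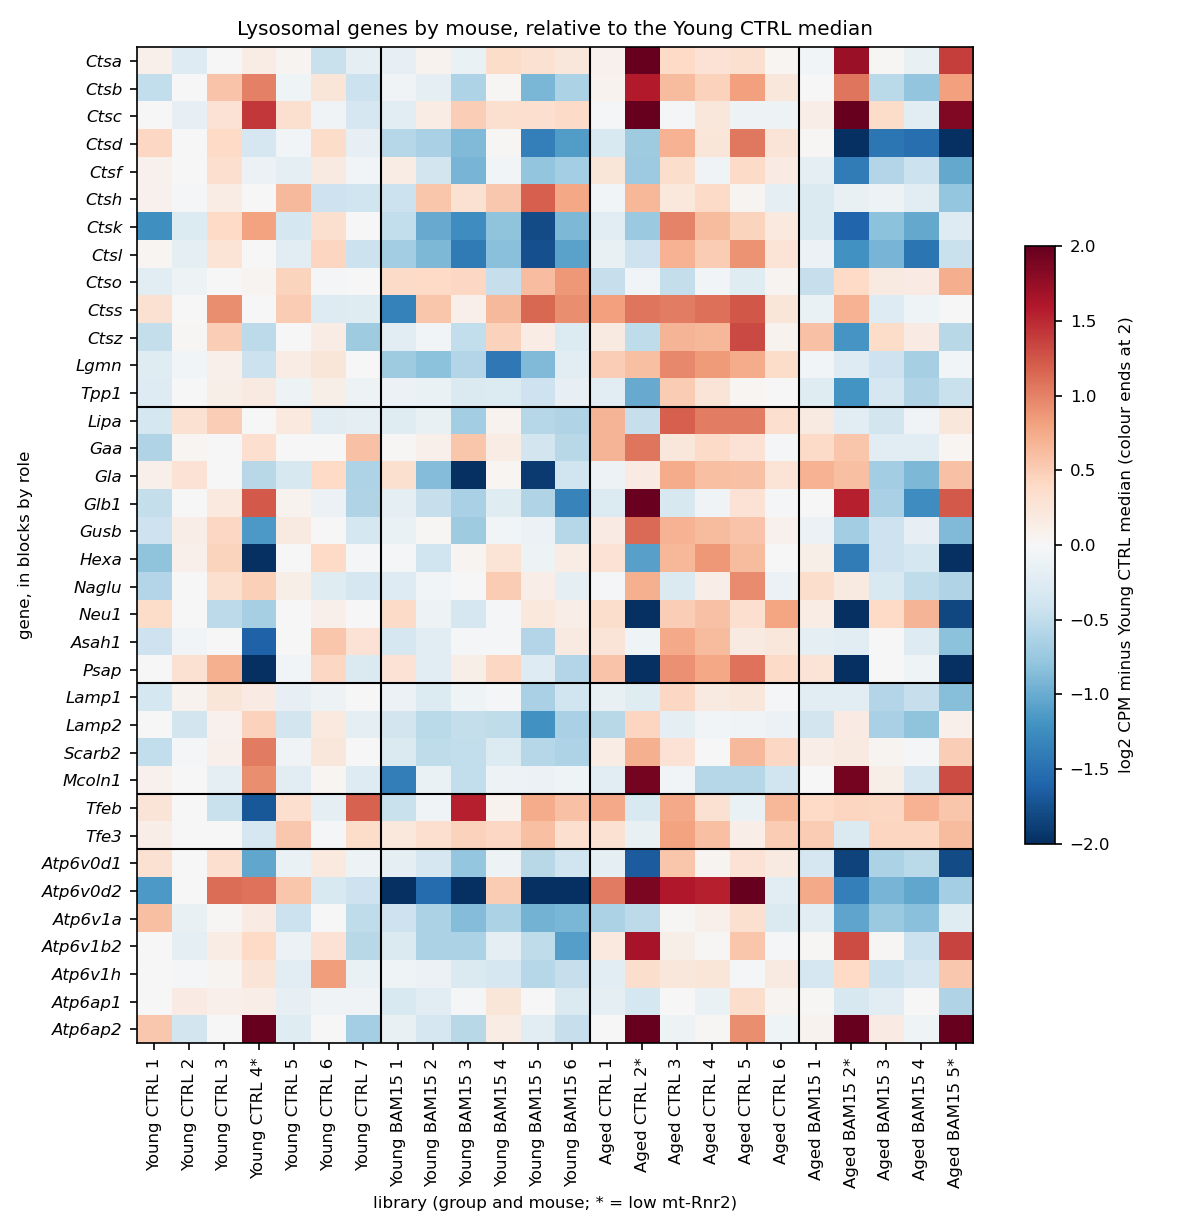
Colour map of the 36 lysosomal genes (vertical axis, in blocks by role) in the 24 libraries (horizontal axis, by group), as log2 CPM minus the Young CTRL median of each gene. The mean over the genes is highest in Aged CTRL (6.50 log2 CPM) and lowest in Young BAM15 (5.92), and the 4 libraries marked with an asterisk differ from their groups for genes such as Psap and Atp6ap2.

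BAM15 in aged mice gave lower values for most proteases, hydrolases and pump genes. Mean Lgmn was 34.8 ± 6.06 CPM in Aged BAM15 (SD, n = 5) against 67.7 ± 10.5 in Aged CTRL (n = 6), and mean Gusb was 37.4 ± 8.33 against 75.6 ± 20.6. Mean Ctsl was 345 ± 134 against 748 ± 245, and mean Ctsd was 474 ± 349 against 1339 ± 571. By edgeR's quasi-likelihood test, 0 of the 36 members and 0 of 15939 genes (0%) had an adjusted p under 0.05. At an unadjusted p under 0.05, 15 members were lower and 0 higher, against 4.59% of all genes lower and 4.5% higher. Without Aged CTRL 2, one of the 4 libraries low in mt-Rnr2, 16 were lower and 4 higher (Ctsc, Ctso, Mcoln1 and Atp6ap2). The share of all genes in that fit is not given here, so these counts cannot be set against it. DESeq2 called 5 members lower (Ctsd, Ctsl, Lgmn, Gusb and Atp6v0d2), against 0.427% of genes, and limma-voom called 15 lower, against 3.44%. Values were below 0 for 29 of 36 members (48.3% of all genes), and their median log2 change was -0.45, against 0.02 over all genes. By role, 8 of 13 proteases, 4 of 10 other hydrolases, 1 of 4 membrane proteins, 0 of 2 transcription factors and 2 of 7 pump genes were lower at the unadjusted threshold. Without the 4 libraries low in mt-Rnr2, 18 members were lower (5.41% of genes) and 0 higher (5.84%) at the unadjusted threshold, 33 of 36 values were below 0 and the median was -0.50. That fit held 3 Aged BAM15 and 5 Aged CTRL mice. Its share of all genes below 0 and its median over all genes are not given here. Leaving out only Aged BAM15 1, whose Ctsd level was the highest of its group, from the fit to all 24 libraries brought Ctsd, Ctsl and Lgmn under an adjusted p of 0.05.

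BAM15 in young mice also gave lower values, with the smallest p-values for Ctsl, Lgmn, Atp6v1a and Ctsk. Mean Ctsl was 276 ± 70.2 CPM in Young BAM15 (SD, n = 6) against 584 ± 120.2 in Young CTRL (n = 7), and mean Lgmn was 25.4 ± 6.84 against 41.5 ± 6.50. Mean Atp6v1a was 134 ± 19.9 against 222 ± 60.8, and mean Ctsk was 19.4 ± 5.46 against 40.6 ± 16.5. No member and 0 of 15939 genes (0%) had an adjusted p under 0.05 in edgeR. At an unadjusted p under 0.05, 9 members were lower (6.88% of all genes) and 1, Ctsh, was higher (6.18%). DESeq2 called 3 lower (Ctsl, Lgmn and Atp6v1a; 0.797% of genes), and limma-voom 6 (1.79%). Without the 4 libraries low in mt-Rnr2, 13 were lower at the unadjusted threshold (10.3% of genes). Values were below 0 for 26 of 36 members (47.3% of all genes), with a median of -0.30 against 0.03 over all genes. By role, 4 of 13 proteases, 0 of 10 other hydrolases, 2 of 4 membrane proteins, 0 of 2 transcription factors and 3 of 7 pump genes were lower at the unadjusted threshold. B cell markers were higher by a median of 2.41 on the log2 scale in this comparison (0 of 10 called), with a summed level of 2.19 to 423 CPM in Young CTRL and 2.81 to 1523 in Young BAM15. With their mean log2 level as a covariate, 3 members were lower at the unadjusted threshold (3.37% of genes) and the median was -0.18.

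Among untreated mice, most lysosomal genes had higher values in the aged than in the young group. Mean Lgmn was 67.7 ± 10.5 CPM in Aged CTRL (SD, n = 6) against 41.5 ± 6.50 in Young CTRL (n = 7), and mean Gusb was 75.6 ± 20.6 against 46.9 ± 14.8. Mean Lipa was 112 ± 39.5 against 70.7 ± 15.3, and mean Ctss was 206 ± 44.3 against 125 ± 40.6. In edgeR 0 members had an adjusted p under 0.05, against 33 of 15939 genes (0.207%). At an unadjusted p under 0.05, 7 were higher (4.56% of all genes) and 0 lower (3.86%): Lgmn, Gusb, Lipa, Ctsa, Atp6v0d2, Ctss and Ctsz. Values were above 0 for 31 of 36 members (46.5% of all genes), with a median of 0.32 against -0.04 over all genes. All 10 lipid, glycan and sphingolipid hydrolases and 12 of 13 proteases had values above 0. DESeq2 called Lgmn higher (0.665% of genes), and limma-voom called Lgmn and Lipa (0.69%). Without the 4 libraries, 13 members were higher at the unadjusted threshold (5.53% of genes) and the median was 0.29. Without the 2 libraries with skin keratin, 4 were higher (4.16%). This comparison shares its Aged CTRL mice with the BAM15 comparison in aged mice and its Young CTRL mice with the one in young mice, so the directions are not independent.

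**Figure D2:**
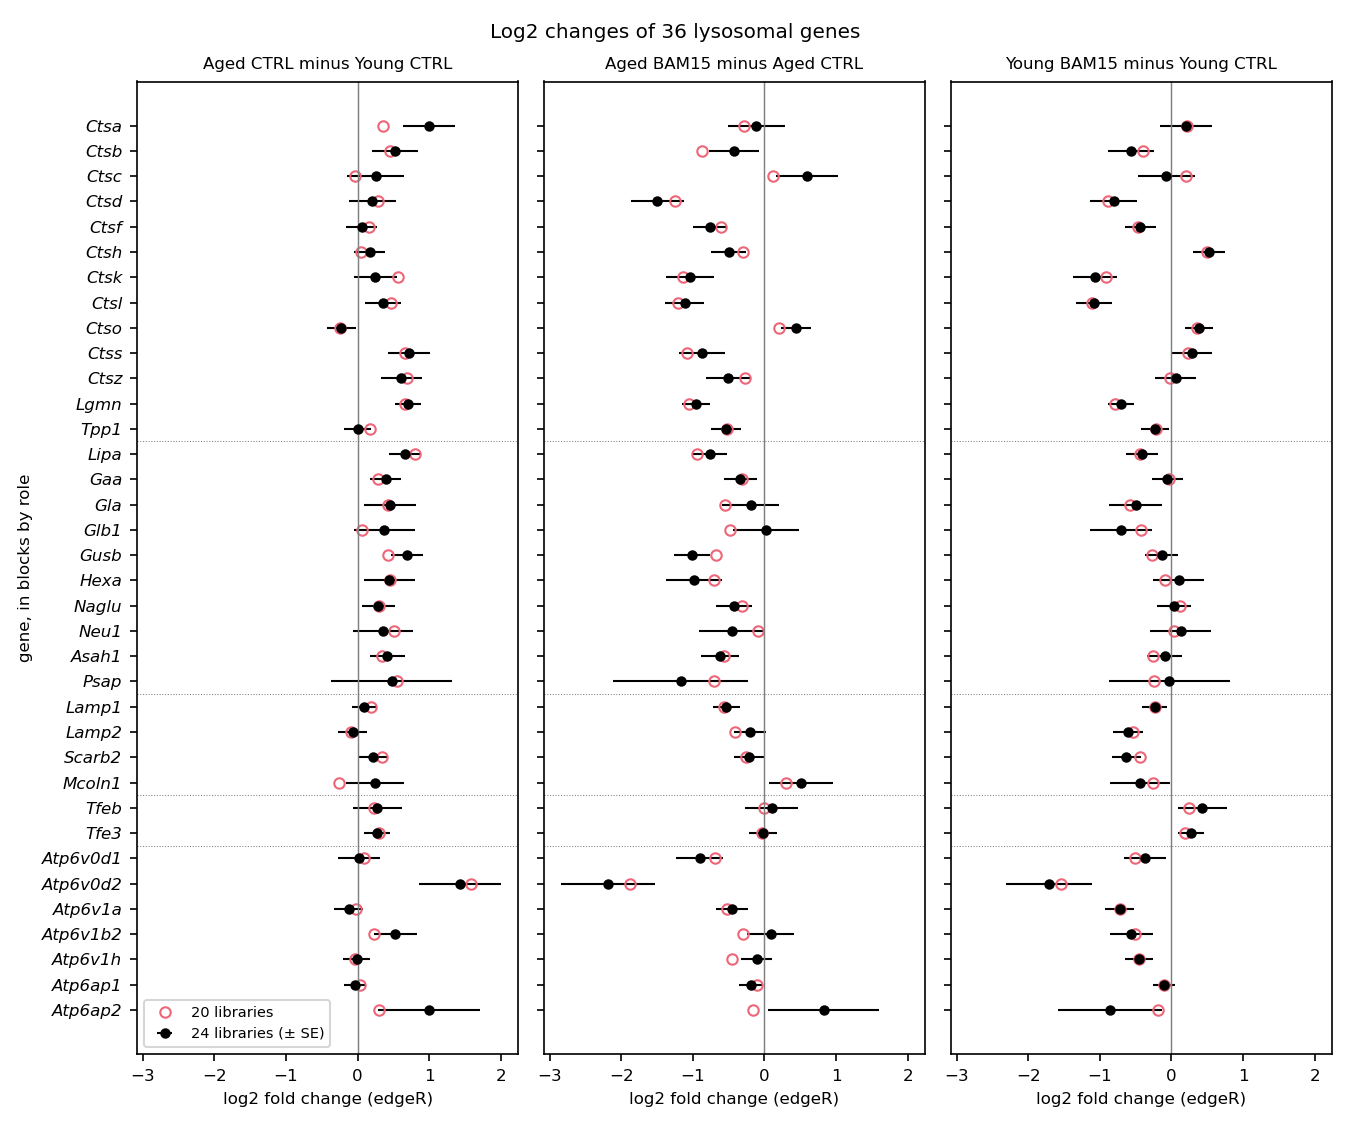
Log2 fold changes (horizontal axis) of the 36 genes (vertical axis, in blocks by role) in 3 comparisons, with filled points and bars for the estimate ± SE from 24 libraries and open circles for the estimate from the 20 libraries left without those low in mt-Rnr2. Most points lie right of 0 for age (median 0.32) and left of 0 for BAM15 in aged (median -0.45) and young mice (median -0.30), and the open circle of Atp6ap2 sits far from its filled point in all 3 panels.

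Legumain, encoded by Lgmn (chromosome 12, 102394084 to 102439813, minus strand), is an asparaginyl endopeptidase that also processes cathepsins. Its lowest, median and highest levels were 31.2, 42.0 and 49.8 CPM in Young CTRL, 15.6, 24.8 and 36.4 in Young BAM15, and 54.3, 67.4 and 82.1 in Aged CTRL. In Aged BAM15 the levels were 40.5, 35.2, 31.4, 26.4 and 40.5 CPM. Every Aged CTRL mouse was above every mouse of the other 3 groups, and the treated and untreated young groups overlapped. Groups without overlap were found for 0.333% of all genes higher with age and for 0.289% lower with BAM15 in aged mice. The log2 change was 0.71 ± 0.18 with age (edgeR adjusted p = 0.113), -0.96 ± 0.20 with BAM15 in aged mice (adjusted p = 0.181) and -0.71 ± 0.18 with BAM15 in young mice (adjusted p = 0.179). Without the 4 libraries the values were 0.66, -1.06 and -0.79.

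Cathepsin L, encoded by Ctsl (chromosome 13, 64359337 to 64370890, minus strand), is a cysteine protease found in most cells. In order of lowest, median and highest, the levels were 431, 578 and 779 CPM in Young CTRL, 171, 293 and 357 in Young BAM15 and 434, 759 and 1076 in Aged CTRL. Aged BAM15 mice had 535, 249.8, 305, 209.8 and 424 CPM. The young groups did not overlap, as for 0.646% of all genes, whereas in aged mice only Aged BAM15 1 reached the range of Aged CTRL. On the log2 scale Ctsl differed by -1.08 ± 0.25 with BAM15 in young mice (edgeR adjusted p = 0.179), -1.12 ± 0.28 in aged mice (adjusted p = 0.226) and 0.36 ± 0.25 with age (adjusted p = 0.806).

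Cathepsin D, encoded by Ctsd (chromosome 7, 142375911 to 142388038, minus strand), is the main aspartic protease of lysosomes. Its lowest, median and highest levels were 846, 1072 and 1428 CPM in Young CTRL, 416, 630.0 and 1094 in Young BAM15 and 657, 1275 and 2217 in Aged CTRL. Aged BAM15 1 had 1087 CPM and the other 4 mice of its group had 253, 395, 375 and 261. Those 4 were below every mouse of the other 3 groups, and the first was inside the range of all 3. The log2 change was -1.50 ± 0.37 with BAM15 in aged mice (edgeR adjusted p = 0.226), -0.80 ± 0.33 in young mice (adjusted p = 0.311) and 0.20 ± 0.33 with age (adjusted p = 0.956). Without Aged BAM15 1 the value in aged mice was -2.06, with an adjusted p of 0.0207 in edgeR.

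Cathepsin K, encoded by Ctsk (chromosome 3, 95499256 to 95509362, plus strand), is a collagen-degrading cysteine protease of osteoclasts, fibroblasts and fat tissue. From lowest through median to highest, the levels were 16.5, 38.6 and 67.3 CPM in Young CTRL, 11.2, 19.9 and 27.3 in Young BAM15 and 23.0, 48.5 and 76.5 in Aged CTRL. Aged BAM15 mice had 31.6, 12.8, 21.8, 18.9 and 32.3 CPM. In aged mice 3 of the 5 treated mice were below every control and the other 2 were within the control range, and in young mice the groups overlapped, with 2 of the 6 treated mice below every control. On the log2 scale Ctsk differed by -1.06 ± 0.31 with BAM15 in young mice (edgeR adjusted p = 0.197), -1.04 ± 0.34 in aged mice (adjusted p = 0.339) and 0.25 ± 0.30 with age (adjusted p = 0.934). Ctsk was lower in libraries with more B cell transcripts: with groups in the model, its slope was -0.16 ± 0.03 log2 units per log2 unit of the B cell mean, and it passed the test (edgeR adjusted p = 0.00175). With that mean as a covariate the BAM15 value in young mice was -0.39.

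Cathepsin F, a cysteine protease encoded by Ctsf (chromosome 19, 4855130 to 4860918, plus strand), had lowest, median and highest levels of 27.8, 31.6 and 40.0 CPM in Young CTRL, 16.7, 22.1 and 35.2 in Young BAM15 and 19.0, 36.4 and 41.0 in Aged CTRL. Aged BAM15 mice had 27.7, 12.0, 21.1, 23.4 and 15.5 CPM. All 5 were below every Young CTRL mouse, and Aged CTRL 2, one of the libraries low in mt-Rnr2, was the only Aged CTRL mouse within their range. For Ctsf the log2 change was -0.76 ± 0.24 with BAM15 in aged mice (edgeR adjusted p = 0.334), -0.43 ± 0.22 in young mice (adjusted p = 0.405) and 0.06 ± 0.22 with age (adjusted p = 0.986).

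The remaining proteases differed among themselves. Ctsh, an aminopeptidase abundant in immune cells, had lowest, median and highest levels of 62.7, 83.9 and 131 CPM in Young CTRL, 62.3, 123 and 191 in Young BAM15 and 73.9, 92.5 and 134 in Aged CTRL, and all 5 Aged BAM15 mice were between 49.1 and 78.0. It was the only member whose value was higher in young treated mice at the unadjusted threshold, 0.52 ± 0.22 (edgeR adjusted p = 0.323), and it was -0.50 ± 0.24 in aged treated mice (adjusted p = 0.548). Its slope on the B cell mean, 0.10 ± 0.03, passed the test (edgeR adjusted p = 0.016), and with that covariate the value in young mice was 0.09. The call of Ctsh was lost without Young CTRL 5 or Young BAM15 1, with an adjusted p of up to 0.125, and that of Ctsk held in 24 of 24 fits that each left out 1 library. In the 2 slope calls, Ctsk was 1 of the genes called lower (0.986% of 15929) and Ctsh 1 of those called higher (5.43%). The plot of both genes against the B cell mean shows these opposite slopes.

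**Figure D3:**
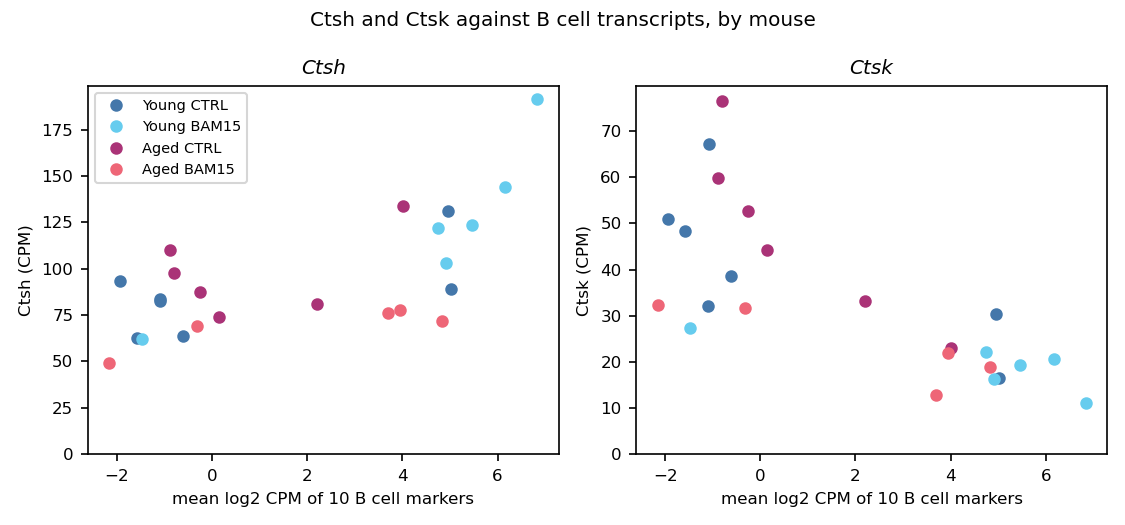
CPM of Ctsh and Ctsk (vertical axes) against the mean log2 CPM of 10 B cell markers (horizontal axis), 1 point per mouse, coloured by group. Ctsh reaches 191 CPM in the Young BAM15 mouse with the highest B cell mean, where Ctsk is at its lowest, 11.2 CPM.

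Ctss, the cathepsin of antigen-presenting cells, averaged 125 CPM in Young CTRL, 153 in Young BAM15, 206 in Aged CTRL and 113 in Aged BAM15, with log2 changes of 0.72 ± 0.29 with age (edgeR adjusted p = 0.427) and -0.87 ± 0.32 with BAM15 in aged mice (adjusted p = 0.403). Tpp1, a tripeptidyl peptidase, was -0.53 ± 0.21 with BAM15 in aged mice (adjusted p = 0.438). Ctso was the one protease above 0 in both BAM15 comparisons, at 0.44 ± 0.22 in aged mice (adjusted p = 0.55) and 0.38 ± 0.20 in young mice (adjusted p = 0.411). Of the other proteases, Ctsa, Ctsb and Ctsc had their highest levels in libraries low in mt-Rnr2. The carboxypeptidase gene Ctsa was 1.00 ± 0.36 with age over all libraries (adjusted p = 0.351) and 0.35 without the 4. Ctsz, a carboxypeptidase of myeloid cells, was 0.61 ± 0.29 with age (adjusted p = 0.564).

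Among the hydrolases, beta-glucuronidase, encoded by Gusb (chromosome 5, 129989011 to 130003049, minus strand), cleaves glycosaminoglycans. Its lowest, median and highest levels were 22.8, 50.2 and 67.0 CPM in Young CTRL, 30.7, 46.2 and 51.0 in Young BAM15 and 53.1, 76.2 and 110.4 in Aged CTRL. Aged BAM15 mice had 46.3, 31.2, 37.6, 44.9 and 27.2 CPM, all below every Aged CTRL mouse. The log2 change was -1.02 ± 0.25 with BAM15 in aged mice (edgeR adjusted p = 0.226), 0.69 ± 0.22 with age (adjusted p = 0.267) and -0.14 ± 0.22 with BAM15 in young mice (adjusted p = 0.846). Without the 4 libraries the groups of aged mice still did not overlap, at 53.1 to 81.4 CPM in Aged CTRL and 37.6 to 46.3 in Aged BAM15. The values were then -0.68 with BAM15 in aged mice and 0.43 with age.

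Lysosomal acid lipase, encoded by Lipa (chromosome 19, 34492318 to 34527474, minus strand), releases fatty acids and cholesterol from lipid taken up by the cell. The lowest, median and highest mice had 53.0, 67.5 and 95.3 CPM in Young CTRL, 41.6, 51.2 and 70.7 in Young BAM15 and 48.9, 123 and 154 in Aged CTRL. Aged BAM15 mice had 76.8, 57.4, 52.1, 64.6 and 79.0 CPM, and the single Aged CTRL mouse not above all of them was Aged CTRL 2. For Lipa the log2 change was 0.66 ± 0.22 with age (edgeR adjusted p = 0.284), -0.76 ± 0.24 with BAM15 in aged mice (adjusted p = 0.334) and -0.41 ± 0.22 in young mice (adjusted p = 0.439). Without the 4 libraries the values were 0.81 (adjusted p = 0.0612), -0.95 and -0.43.

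The other 8 of these genes had values from -1.17 (Psap) to 0.02 (Glb1) with BAM15 in aged mice and from -0.70 (Glb1) to 0.13 (Neu1) in young mice. With the 4 libraries low in mt-Rnr2 left out, they ran from -0.71 (Hexa) to -0.09 (Neu1) in aged mice and from -0.58 (Gla) to 0.11 (Naglu) in young mice, and Glb1 was -0.48 and -0.42. Hexa, a subunit of beta-hexosaminidase, was -0.98 ± 0.39 in aged mice (edgeR adjusted p = 0.444), or -0.71 without those libraries, and Asah1, acid ceramidase, was -0.62 ± 0.27 (adjusted p = 0.49). The glycosidase genes Gaa, Gla and Naglu had no unadjusted p under 0.05 in the 3 main comparisons. Psap, the precursor of the saposins that assist sphingolipid breakdown, and the sialidase gene Neu1 were among the genes that split with mt-Rnr2.

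Of the 4 membrane proteins, Scarb2 (chromosome 5, 92441314 to 92506833, minus strand) encodes LIMP-2, the carrier of glucocerebrosidase. Its lowest, median and highest levels were 133, 188 and 386 CPM in Young CTRL, 123, 133 and 156 in Young BAM15 and 187, 239.8 and 308 in Aged CTRL, and Aged BAM15 mice had 207, 213, 196, 184 and 265. All 6 Young BAM15 mice were below the Young CTRL median, while the aged groups overlapped. For Scarb2 the log2 change was -0.63 ± 0.20 with BAM15 in young mice (edgeR adjusted p = 0.228), -0.21 ± 0.22 in aged mice (adjusted p = 0.822) and 0.21 ± 0.20 with age (adjusted p = 0.895). Of the abundant membrane glycoproteins, Lamp1 was -0.53 ± 0.19 in aged treated mice (adjusted p = 0.395) and Lamp2 was -0.60 ± 0.21 in young treated mice (adjusted p = 0.267). Mcoln1, a calcium channel, had values of 0.51 ± 0.45 and -0.44 ± 0.42 in the aged and young BAM15 comparisons (adjusted p = 0.781 and 0.692), and 0.30 and -0.26 without the 4 libraries low in mt-Rnr2.

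The 2 transcription factors had values from -0.02 to 0.43 in the 3 main comparisons. Tfeb (chromosome 17, 47737030 to 47792419, plus strand) had lowest, median and highest levels of 2.87, 9.29 and 21.0 CPM in Young CTRL, 6.81, 11.8 and 27.3 in Young BAM15 and 7.54, 13.1 and 15.7 in Aged CTRL, and 12.2, 12.5, 12.4, 15.1 and 13.6 in Aged BAM15. Tfe3 (chromosome X, 7762560 to 7775202, plus strand) had 21.1, 26.5 and 38.7 CPM in Young CTRL, 30.8, 34.5 and 40.3 in Young BAM15, 23.9, 35.1 and 46.3 in Aged CTRL, and 37.6, 21.7, 35.9, 35.7 and 41.0 in Aged BAM15. All 4 groups overlapped for both genes. Their log2 changes with BAM15 were 0.10 ± 0.37 (Tfeb) and -0.02 ± 0.20 (Tfe3) in aged mice and 0.43 ± 0.34 and 0.28 ± 0.18 in young mice (edgeR adjusted p from 0.522 to 0.987). With age they were 0.28 ± 0.34 and 0.27 ± 0.18 (adjusted p = 0.935 and 0.775). These values are transcript levels, and the activity of both factors is set largely by their location in the cell, which was not measured.

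Atp6v0d2 (chromosome 4, 19876841 to 19922605, minus strand) encodes the d2 subunit of the V0 sector, which is found mainly in osteoclasts, kidney and macrophages. It had the widest range of the pump genes relative to its level: 3.68, 8.18 and 17.7 CPM (lowest, median, highest) in Young CTRL, 0.737, 1.42 and 11.6 in Young BAM15 and 7.06, 24.4 and 63.0 in Aged CTRL. Aged BAM15 mice had 13.8, 3.17, 4.28, 3.98 and 5.13 CPM. One mouse in each treated group stood above the rest, and 4 of the 5 Aged BAM15 mice were below every Aged CTRL mouse. The log2 change was -2.18 ± 0.66 with BAM15 in aged mice (edgeR adjusted p = 0.306), -1.71 ± 0.60 in young mice (adjusted p = 0.271) and 1.43 ± 0.57 with age (adjusted p = 0.427). Its lowest count in a library was 8, the only one under 10 among the members. Its paralogue Atp6v0d1 (chromosome 8, 105524465 to 105566047, minus strand), which encodes the d1 subunit of most cells, had lowest, median and highest levels of 33.7, 69.3 and 87.9 CPM in Young CTRL, 40.6, 53.8 and 64.9 in Young BAM15 and 21.9, 75.5 and 101 in Aged CTRL, and 55.1, 19.1, 44.8, 47.6 and 20.1 in Aged BAM15. The 4 libraries low in mt-Rnr2 held its 4 lowest values. The change of Atp6v0d1 was -0.90 ± 0.32 with BAM15 in aged mice (adjusted p = 0.398), or -0.69 without those libraries, -0.37 ± 0.29 in young mice (adjusted p = 0.618) and 0.02 ± 0.29 with age (adjusted p = 0.999).

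The A subunit of the V1 sector, encoded by Atp6v1a (chromosome 16, 44085402 to 44139705, minus strand), holds the site of ATP hydrolysis. Its lowest, median and highest levels were 157, 222 and 338 CPM in Young CTRL, 115, 132 and 166 in Young BAM15 and 143, 204 and 278 in Aged CTRL, and Aged BAM15 mice had 189.8, 107, 132, 124 and 188. Only 1 Young BAM15 mouse reached the range of Young CTRL, and the aged groups overlapped more widely. The log2 change was -0.72 ± 0.21 with BAM15 in young mice (edgeR adjusted p = 0.197), -0.46 ± 0.22 in aged mice (adjusted p = 0.553) and -0.13 ± 0.21 with age (adjusted p = 0.956). The regulatory H subunit, Atp6v1h, was -0.45 ± 0.20 in young treated mice (adjusted p = 0.337). All 7 pump genes had values below 0 with BAM15 in young mice, against 5 of 7 in aged mice, where Atp6ap2 (0.83) and Atp6v1b2 (0.09) were above 0. In the 20 other libraries these were -0.16 and -0.30, and all 7 were below 0 in aged mice too. The accessory gene Atp6ap1 differed little, from -0.18 to -0.04 over the 3 comparisons.

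**Figure D4:**
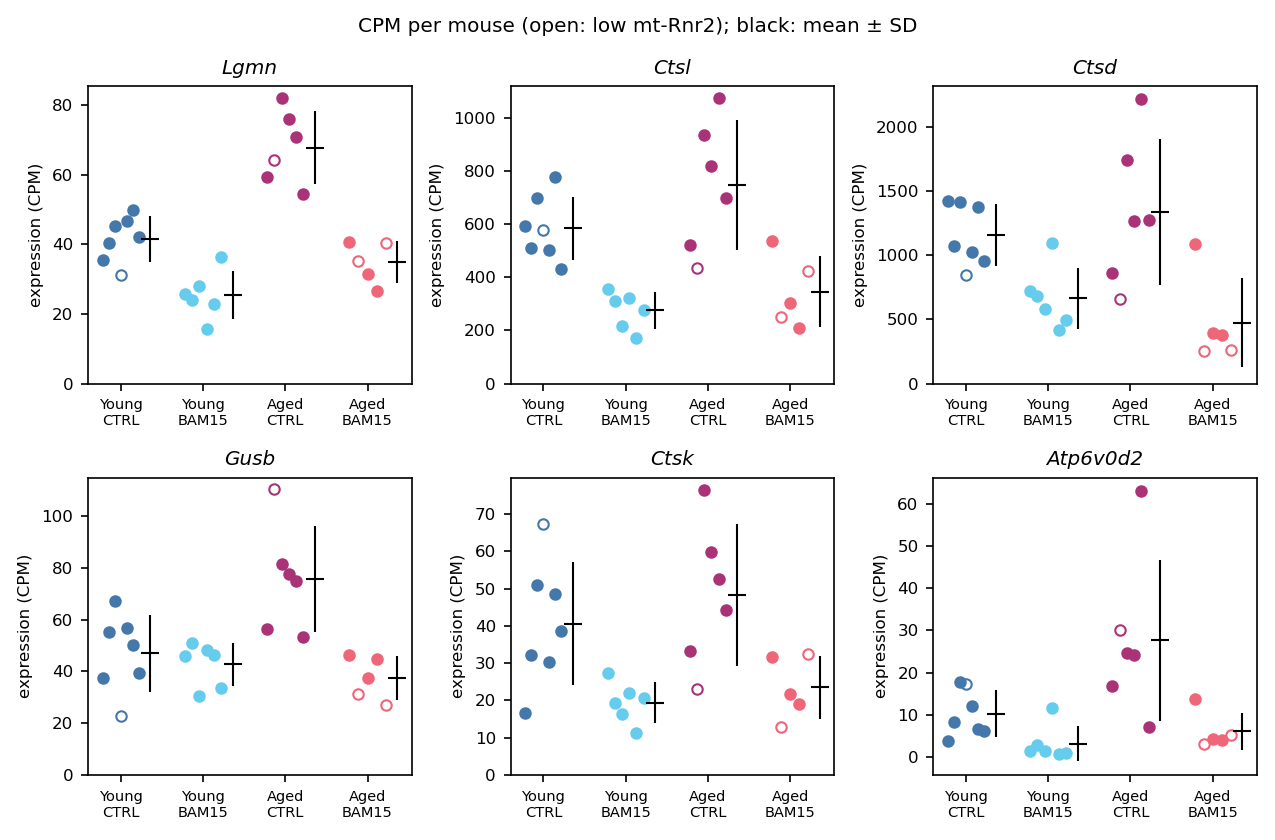
CPM of 6 lysosomal genes (vertical axes, from near 0) in each mouse of the 4 groups (horizontal axes), with open circles for libraries low in mt-Rnr2 and black marks for the group mean ± SD. Every Aged BAM15 mouse is below every Aged CTRL mouse for Lgmn and Gusb, and every Young BAM15 mouse is below every Young CTRL mouse for Ctsl.

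The 2 BAM15 comparisons used different mice. Both values were below 0 for 21 of 36 members, against 26.5% of all genes, and both were above 0 for 2 (Ctso and Tfeb), against 30.9%. At the unadjusted threshold, 5 members were lower at both ages, against 1.32% of genes: Ctsd, Ctsk, Ctsl, Lgmn and Atp6v0d2. The difference between the ages was tested as an interaction, and 0 members and 0 of 15939 genes (0%) passed in edgeR. At the unadjusted threshold, 4 members had a lower value in aged than in young mice (1.85% of genes) and 0 a higher one (3.22%). These were Ctsh at -1.02 ± 0.33, Ctss at -1.16 ± 0.43, Gusb at -0.88 ± 0.33 and Hexa at -1.09 ± 0.53 (edgeR adjusted p = 0.899 for each). For Lgmn, Ctsl and Ctsk the interaction was -0.25 ± 0.26, -0.03 ± 0.37 and 0.02 ± 0.44 (adjusted p = 0.903, 0.991 and 0.993). With the 4 libraries low in mt-Rnr2 left out, 3 members had a lower value (1.77% of genes) and 0 a higher one (1.67%): Ctsa at -0.51, Ctsh at -0.79 and Ctss at -1.32, while Gusb was -0.40 and Hexa -0.63. When Aged CTRL 2 alone was left out, 4 were lower and 5 higher (Ctsc, Glb1, Mcoln1, Atp6v1b2 and Atp6ap2). Shares of all genes are not given for that fit, so these counts cannot be set against them.

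Aged BAM15 mice were also set against Young CTRL mice, which asks how far treated old tissue lay from untreated young tissue. In edgeR 0 members passed, against 205 of 15939 genes (1.29%). At the unadjusted threshold, 8 members were lower (7.85% of genes) and 2, Atp6ap2 and Ctsa, were higher (8.98%). The value was 1.82 for Atp6ap2 and 0.89 for Ctsa. With the 4 libraries low in mt-Rnr2 left out they were 0.13 and 0.06, and 8 members were lower (7.89% of genes) and 1, Neu1, higher (6.55%). Leaving out 1 library gave from 0 higher (without Aged BAM15 2 or 5) to 5 (without Young CTRL 4, Aged CTRL 2 or Aged BAM15 4), and 4 without Aged BAM15 1 or 3. Shares of all genes in these fits without 1 library are not given here. Ctsd was nearest to the threshold at -1.29 ± 0.36 (adjusted p = 0.0695), and without Aged BAM15 1 both Ctsd at -1.86 (adjusted p = 0.00296) and Ctsl at -0.98 (adjusted p = 0.0487) passed. Ctsf was -0.71 ± 0.23 (adjusted p = 0.121), with groups that did not overlap, as for 0.822% of genes. Values were below 0 for 23 of 36 members (50.9% of genes), with a median of -0.14 against -0.01 over all genes. Lgmn, Gusb and Lipa, which had the smallest p-values with age, were -0.25 ± 0.19, -0.33 ± 0.24 and -0.10 ± 0.23 here (adjusted p = 0.54, 0.527 and 0.883).

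Of the 30 members with a promoter window, those holding CACGTG had values below 0 with BAM15 in 11 of 13 cases in aged mice and 11 of 13 in young mice. Those without it had 13 of 17 and 10 of 17. The median change with BAM15 was -0.46 with the motif and -0.45 without it in aged mice, and -0.44 and -0.07 in young mice. With age the medians were 0.29 and 0.28. These counts are a description of 30 genes and were not tested.

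Macrophage markers were measured beside the lysosomal genes because lysosome-rich macrophages are common in fat. The 15 general markers summed to 462 to 1206 CPM in Young CTRL, 485 to 902 in Young BAM15, 828 to 1382 in Aged CTRL and 571 to 1092 in Aged BAM15, and none was at 0 in any library. Their median log2 change was 0.54 with age, -0.23 with BAM15 in aged mice and -0.16 in young mice, and 0 of 15 passed in each. At an unadjusted p under 0.05 in edgeR, 5 were higher and 0 lower with age (4.56% of all genes higher). With BAM15 in aged mice 5 were lower (4.59%) and 0 higher, and in young mice 0 were lower (6.88%) and 2 higher (6.18%). The 8 markers of lipid-associated macrophages, which form around dying adipocytes, summed to 372 to 926 CPM in Young CTRL, 191 to 555 in Young BAM15, 607 to 1595 in Aged CTRL and 260.3 to 588 in Aged BAM15, and Spp1 was at 0 in 1 library. Their median change was 1.09 with age, where Gpnmb passed at 1.76 ± 0.34 (edgeR adjusted p = 0.0206), -1.74 with BAM15 in aged mice and -0.92 in young mice (0 of 8 passed in each). Mmp12 was nearest, at -3.89 ± 0.71 in aged treated mice (adjusted p = 0.105). At the unadjusted threshold 4 of these 8 were higher and 0 lower with age, against the same shares of all genes. With BAM15, 6 of 8 were lower in aged mice and 5 of 8 in young mice, with 0 higher in either.

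With groups in the model, the lysosomal genes were tested for their slope on the mean log2 CPM of the 15 general macrophage markers over the 24 libraries. None of 36 members and 0 of 15924 genes (0%) passed in edgeR. At the unadjusted threshold, 3 members had a slope above 0 (2.91% of genes) and 0 one below 0 (4.48%). Leaving out 1 library gave 2 to 7 above 0 (2 without Young CTRL 3, 7 without Young BAM15 1 and 5 without Aged CTRL 2, Aged BAM15 1 or Aged BAM15 5), and leaving out the 4 libraries low in mt-Rnr2 gave 8 above 0 (4.31% of genes) and 1 below (6.35%). For the fits without 1 library, shares of all genes are not given here. The 3 members past the unadjusted threshold over all 24 libraries were Atp6v0d2 at 2.70 ± 0.62 log2 units per log2 unit (adjusted p = 0.104), Naglu at 1.07 ± 0.26 (adjusted p = 0.108) and Ctss at 0.96 ± 0.37 (adjusted p = 0.518). Slopes were above 0 for 29 of 36 members (44.9% of genes). With this mean as a covariate, the median of the members was 0.15 for age, -0.24 for BAM15 in aged mice and -0.30 for BAM15 in young mice. In aged mice 8 members were lower at the unadjusted threshold in that fit (3.78% of genes), each of them also lower without the covariate: Ctsd, Ctsf, Ctsk, Ctsl, Lgmn, Lipa, Gusb and Atp6v0d1. Ctsc was higher there, at 0.98 (4.29% of genes higher). In young mice 9 were lower (5.93%). With age, Lgmn was the only member past the unadjusted threshold with the covariate, against 7 higher without it. Of those 7, Ctsa was 0.75, Gusb 0.57, Lipa 0.46, Ctsz 0.25 and Ctss 0.22 with the covariate. The share of all genes for age with the covariate is not given here. In that fit Atp6v0d2 was 0.06 with age and -0.91 with BAM15 in aged mice, whereas Lgmn was 0.58 and -0.86. The part of the macrophage content in the group values was not tested beyond these fits.

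Other genes of the pathway, from lists that do not overlap the members, gave few calls. Of 33 other hydrolases and activators, 0 passed in the 3 main comparisons, and at the unadjusted threshold 8 were lower and 0 higher with BAM15 in aged mice, 6 lower and 2 higher (Ppt1 and Ctsw) in young mice, and 0 lower and 2 higher with age. Over all genes the shares are those given above, 4.59% lower in aged mice, 6.88% in young mice and 4.56% higher with age. Acp5, tartrate-resistant acid phosphatase, was -0.91 ± 0.22 with BAM15 in aged mice (edgeR adjusted p = 0.226), and Npc2, a cholesterol carrier, had an adjusted p of 0.257. Of 14 other pump subunits, 4 were lower with BAM15 in aged mice and 6 in young mice at the unadjusted threshold, and 0 higher in either, and with age 3 were lower and 0 higher, against 3.86% of all genes lower. Atp6v1c2 had the smallest p of this list in young mice, at -4.75 ± 1.26 (adjusted p = 0.187), and was -3.48 ± 1.16 with age (adjusted p = 0.286). Atp6v0a4 had the lowest values, -4.77 and -3.58. Skin keratin Krt14, highest in Young CTRL 1, was -10.99 and -7.49 in the same comparisons. Whether these subunits follow skin content was not tested. Atp6v1e1, a V1 stalk subunit, was -0.66 with BAM15 in both aged and young mice (± 0.22, adjusted p = 0.373, and ± 0.21, adjusted p = 0.221). Against Young CTRL, Aged BAM15 mice had lower Acp5 at -0.87 (adjusted p = 0.0462) and Atp6v1e1 at -0.87 (adjusted p = 0.0465), the 2 genes of these lists that passed in a comparison between groups.

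Of 21 other lysosomal membrane proteins, 4 were lower at the unadjusted threshold in each BAM15 comparison, and 2 were higher with age: Slc11a1, a metal transporter of phagosomes, at 1.05 ± 0.29 (edgeR adjusted p = 0.16) and Cd68 at 0.92 ± 0.32 (adjusted p = 0.313). Of 17 regulators of mTORC1 and of the TFEB family, 1 was lower with BAM15 in aged mice and 2 lower and 1 higher in young mice, and the medians were 0.05 and -0.18. Of 19 autophagy genes, 1 was lower in aged and 2 in young treated mice, with medians of -0.02 and -0.26. The counts of these last 2 lists in aged mice, 1 of 17 and 1 of 19, are near the 4.59% of all genes. The cystatins inhibit cathepsins. Cstb was -1.59 ± 0.36 with BAM15 in young mice (adjusted p = 0.179) and -1.14 ± 0.39 in aged mice (adjusted p = 0.373), and Cst3 was -0.97 ± 0.40 in aged mice (adjusted p = 0.469). Of the 4 cystatins, 1 had a value above 0 with BAM15 in aged mice and 2 in young mice. The highest was Cst7, at 2.37 in aged and 1.31 in young mice. Cst6 was -8.46 ± 2.48 with BAM15 in young mice (adjusted p = 0.2) and -7.54 ± 2.36 with age (adjusted p = 0.253). The summed cystatins were highest in Young CTRL 1, a library with skin keratin, and whether Cst6 follows skin content was not tested.

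Markers of the other cell types in the tissue were summarised by their medians. The median log2 change with BAM15 in aged and young mice was -0.08 and -0.37 for 10 adipocyte markers, 0.31 and 0.03 for 8 fibroblast and progenitor markers, and -0.32 and 0.24 for 6 endothelial markers. It was 1.33 and 2.41 for 10 B cell markers, with 10 of 10 above 0 at both ages, and -0.64 and 0.26 for 8 skeletal muscle markers. For the 2 skin keratins tested it was -0.69 and -6.60, and for 3 epithelial markers 0.65 and -4.40. In edgeR 0 of these passed in the 2 comparisons, and their part in the values of the lysosomal genes was not tested beyond the fits given with covariates or without libraries. Krt14 was at 0 in 10 libraries and reached 840.0 CPM in Young CTRL 1. Without the 2 libraries with skin keratin, 11 lysosomal genes were lower with BAM15 in young mice at the unadjusted threshold (7.33% of genes), and their median was -0.31.

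A split that ran through many genes, and was not particular to the lysosomal genes, set the 4 libraries low in mt-Rnr2 apart. They were grouped here after their values were seen. Without overlap with the other 20 libraries, 5 members were higher in them (Ctsb, Ctsc, Glb1, Mcoln1 and Atp6ap2; 6.91% of all genes) and 4 lower (Hexa, Neu1, Psap and Atp6v0d1; 8.76%). Psap was at 3.58 to 117 CPM in the 4 and 474 to 1503 in the 20. Atp6ap2, the prorenin receptor and pump accessory protein, was at 396 to 1086 CPM in the 4 and 49.5 to 151 in the 20, and Glb1, lysosomal beta-galactosidase, at 57.5 to 95.9 and 9.69 to 29.8. Because 1, 1 and 2 of these libraries fell in Young CTRL, Aged CTRL and Aged BAM15, they moved the group values of these genes. Atp6ap2 was 1.00 ± 0.71 with age and 0.83 ± 0.78 with BAM15 in aged mice over all libraries (edgeR adjusted p = 0.814 and 0.797), and 0.29 and -0.16 without the 4. Psap was -1.17 ± 0.94 with BAM15 in aged mice (adjusted p = 0.755) and -0.70 ± 0.27 without them (adjusted p = 0.36). The plot against the mt-Rnr2 share shows both clusters. These 4 libraries also had the 4 highest totals, 18395476 to 21865353 counts, against at most 17894509 in the other 20. What set them apart was not tested.

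**Figure D5:**
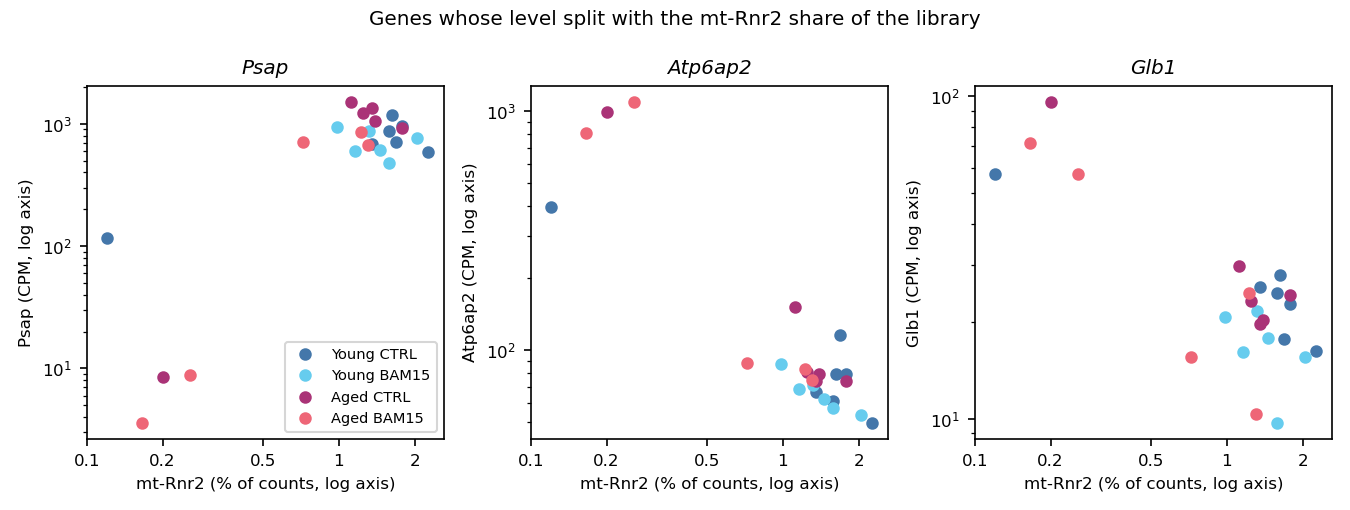
CPM of Psap, Atp6ap2 and Glb1 (vertical log axes) against the share of counts from mt-Rnr2 (horizontal log axis, percent), 1 point per mouse, coloured by group. The 4 libraries at or under 0.257% lie apart, with Psap at or below 117 CPM and Atp6ap2 at or above 396 CPM.

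Without those 4 libraries, 14 members in aged mice had every one of the 3 remaining Aged BAM15 mice below all 5 remaining Aged CTRL mice, and 0 had the reverse, against 3.5% and 4.12% of all genes. They were the proteases Ctsa, Ctsb, Ctsf, Ctsk, Ctss, Lgmn and Tpp1, the hydrolase genes Lipa, Gusb, Asah1 and Psap, and Lamp1, Atp6v0d1 and Atp6v1h. Psap was at 665 to 859 CPM in these Aged BAM15 mice and 926 to 1503 in Aged CTRL, and Lamp1 at 374 to 486 and 509.6 to 753. No member passed an adjusted p of 0.05 in that fit, nor did any of all genes tested. In young mice 1 member, Ctsl, was lower without overlap (0.872% of genes), and with age 1 member, Lgmn, was higher without overlap (0.954%).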

How the data were processed

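Raw counts per gene from 3' tag libraries of 24 mice were deposited by the authors, with a second table of the same counts divided by size factors (a normalized signal), which gave gene symbols and matched the raw counts after rescaling. Per the submitters' processing notes, R 3.4.3 and DESeq2 1.18.1 were used with build GRCm38. Which aligner and counter were used is not given in the sources used here. The raw counts were tested with edgeR 4.0.16 in R 4.3.3: 15939 of 17541 genes passed filterByExpr, TMM factors were used, and one quasi-likelihood model with 4 groups was fitted to all 24 libraries (20 residual degrees of freedom), with Benjamini-Hochberg adjustment over all genes and a threshold of 0.05. Errors of log2 changes are SE. CPM uses TMM-scaled library sizes, and mean log2 CPM uses a prior count of 2. Totals ran from 8624158 to 21865353 counts, and over 61 pairs of libraries in a group none agreed within sampling noise. The fits were tested on simulated data. DESeq2 1.42.0, limma 3.58.1, other scalings and filters, covariates for marker lists, the replicate number as a block and fits without libraries were alternatives. The members and gene lists were chosen with earlier results of these data known. Described with the level of each Aged BAM15 mouse are the 10 members with the smallest p in any comparison between groups, with Tfeb, Tfe3 and Atp6v0d1. For the other groups their lowest, median and highest levels are given. Of other lists, mostly the pair with the smallest p is named.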

Additional observations from a re-analysis of the deposited data

Results flagged for a closer look

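In the 4 groups of 5 to 7 mice, the highest or lowest value of each lysosomal gene was compared with its nearest neighbour by Dixon's test at the 95% level. Of 144 groups of values, 22 tests found a mouse far from the rest of its group. Chance gives about 1 in 20 groups, and 18 of the 22 were in libraries low in mt-Rnr2. In Aged CTRL 2 the values were high for Ctsa (424.1 CPM), Ctsc (352.0), Glb1 (95.9), Mcoln1 (31.79), Atp6v1b2 (514.5) and Atp6ap2 (990.9), and low for Neu1 (5.359), Psap (8.533) and Atp6v0d1 (21.91). In Young CTRL 4 they were high for Ctsc (235.6), Glb1 (57.52), Mcoln1 (16.1) and Atp6ap2 (396.5), and low for Psap (116.9) and Atp6v0d1 (33.66). In Aged BAM15 2, Ctss was high (171.6) and Tfe3 low (21.69), and in Aged BAM15 5, Ctsh was low (49.05). The other 4 were Ctso in Young CTRL 5 (38.25) and Young BAM15 4 (20.22), Lamp2 in Young BAM15 5 (115.4) and Mcoln1 in Young BAM15 1 (3.257).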

How the results depend on the processing

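No lysosomal gene changed sign while called under 14 alternatives and 24 fits that each left out 1 library. Counts of called genes were higher with other tools. With age, DESeq2 called 1 gene higher, limma-voom 2, and 1 was called without the libraries low in mt-Rnr2 and with the B cell covariate, an alternative chosen after seeing the data. With BAM15 in aged mice DESeq2 called 5 lower and limma-voom 15, and leaving out 1 library gave 0 to 3 (3 without Aged BAM15 1). With BAM15 in young mice DESeq2 called 3 lower and limma-voom 6. For Aged BAM15 against Young CTRL, DESeq2 called 1 lower and limma-voom 7 (median -0.34), and leaving out 1 library gave 0 to 2 (2 without Aged BAM15 1, 1 without Young CTRL 4 or Aged CTRL 2). The macrophage covariate moved the medians to 0.15 for age, -0.24 for BAM15 in aged mice and -0.12 for the interaction. On the macrophage slope, no filter called 1 gene higher, DESeq2 2 and limma-voom 1, and the median ran from 0.28 (without Aged BAM15 1) to 0.54 (without Young BAM15 1) when 1 library was left out. On the B cell slope, genes called lower numbered 2 with DESeq2's size factors in edgeR, 2 with DESeq2, 4 with limma-voom, 2 without the libraries low in mt-Rnr2, 3 without those with skin keratin, and 1 to 3 when 1 library was left out (3 without Young CTRL 1, 2 without Young CTRL 2 or 7). Genes called higher on it numbered 2 with limma-voom, 0 with the replicate block, and 0 to 1 when 1 library was left out (0 without Young CTRL 5 or Young BAM15 1). Shares of all genes are not given here for these slope fits or for the fits without 1 library. The same holds for the age fit without the libraries low in mt-Rnr2 and with the B cell covariate. Those counts therefore cannot be set against all genes. The replicate number as a block called 0 lysosomal genes between groups, and took the calls over all genes from 33 to 5 for age and from 205 to 17 for Aged BAM15 against Young CTRL. Same-numbered libraries did not deviate together over all genes (33 pairs, median r = -0.04, against 0.00 for 182 other pairs, and 3 of 24 libraries correlated best with their own number). The main fits did not pair them, and whether they shared anything beyond the number was not tested further. Over all genes, age gave 179 calls with DESeq2, 145 with limma-voom, 79 without the libraries low in mt-Rnr2 and 4 without those with skin keratin. Aged BAM15 against Young CTRL gave 757 with DESeq2, 1633 with limma-voom, 105 without the libraries low in mt-Rnr2 and 86 without those with skin keratin. The cause of these shifts was not tested. At 5 to 7 mice per group and a common biological coefficient of variation of 0.621, the spread between mice limits precision for most genes.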
